A study of Mus musculus with 22 samples.

Results

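The neurexins, the neuroligins and the proteins that bind or anchor them were described through 8 genes, Nrxn2, Nrxn3, Nlgn1, Nlgn2, Nlgn3, Gphn, Mdga1 and Mdga2, out of the 37786 genes counted. The genes were taken by name. They were selected on a measured value of these mice, the higher level of Nlgn2 after stimulation, so the contrast between stimulated and control mice is given for them as a description, and counts past an unadjusted p stand only beside the share of all genes. RNA was sequenced from dissected anterior cingulate cortex (ACC), without sorting of cells, of 12 control and 10 stimulated wildtype adult male C57BL/6J mice. All of these mice carried an optic fibre implanted into the ACC of 1 side and a virus in the basolateral amygdala (BLA) of both sides that brings channelrhodopsin, a light-gated cation channel, with EYFP under the CaMKIIa promoter, which acts mostly in excitatory neurons. Stimulated mice received blue light in the ACC in 9 sessions over successive weeks, while control mice had the same surgery and handling with the light off. Tissue of both hemispheres was pooled per mouse after the last session, so the side without a fibre is part of every value.

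Neurexins are presynaptic membrane proteins that reach across the synaptic cleft to neuroligins, and the pair helps to organise release sites and receptors opposite each other. NLGN1 is found mainly at glutamatergic synapses, NLGN2 mainly at GABAergic and glycinergic synapses, and NLGN3 at both kinds. Gephyrin, the product of Gphn, forms the lattice that holds glycine and many GABA-A receptors under the membrane and binds NLGN2. MDGA1 and MDGA2 are membrane-anchored proteins that bind neuroligins and keep neurexins off them. In bulk tissue, fewer cells of a type and less RNA per cell cannot be told apart.

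Total counts ranged from 23090483 to 43668462 per mouse, and all 8 genes passed the minimum of 10 counts in at least 10 mice, their lowest count in any mouse being 126, for Mdga1. Library numbers in the labels run up to 23 and leave out 7. Numbers 1 to 11 (6 controls and 4 stimulated mice) stood apart from 12 to 23 (6 controls and 6 stimulated mice), and are called here the low and the high run of library numbers. The labels do not state whether they are the batches of the study. Of 17524 genes tested, 68.1% differed between the runs at an adjusted p under 0.05 (edgeR's quasi-likelihood test with Benjamini-Hochberg adjustment, group in the fit), so values are given by run. Markers of glutamate neurons (6 genes, summed level 3136 to 7802 CPM, counts scaled to the same library total) and GABA neurons (8 genes, 1041 to 1703 CPM) were present in every mouse, and 0 genes of these lists were at 0 throughout. Summed striatum markers were at 116 to 187 CPM.

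The sequence before the start of Nlgn2 is shown because Nlgn2 is the gene on which the choice rested, and that of Nlgn1 for contrast, since it is the neuroligin of the other synapse class. Both are the 250 bases upstream of a start in RefSeq (GRCm38.p6; for Nlgn1 the more distal of 2 starts), written 5′ to 3′ along the gene. Capitals mark GC boxes, the letters GGGCGG or their reverse complement, which the factor SP1 and its relatives can bind.

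Nlgn2, chr11:69837785-69838034, minus strand: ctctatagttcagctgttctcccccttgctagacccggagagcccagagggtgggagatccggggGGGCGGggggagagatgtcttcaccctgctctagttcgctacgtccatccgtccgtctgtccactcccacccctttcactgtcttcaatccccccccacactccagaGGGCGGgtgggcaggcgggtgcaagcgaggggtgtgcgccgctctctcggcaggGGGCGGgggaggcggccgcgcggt
Nlgn1, chr3:26331910-26332159, minus strand: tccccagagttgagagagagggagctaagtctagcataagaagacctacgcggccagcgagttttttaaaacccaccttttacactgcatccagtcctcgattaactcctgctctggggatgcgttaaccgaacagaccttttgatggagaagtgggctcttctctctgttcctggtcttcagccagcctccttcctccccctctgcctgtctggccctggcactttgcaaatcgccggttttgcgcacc

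The Nlgn2 window held 3 GC boxes and 67.6% G and C, more than 87.1% of the 32851 windows of that length before RefSeq starts, of which 32.7% held at least 1 GC box. The Nlgn1 window held 0 GC boxes and 53.6% G and C, above 53.9% of windows. Promoter entries were matched for 6 of the 8 genes, Nrxn3, Nlgn1, Nlgn2, Gphn, Mdga1 and Mdga2. Windows of Gphn and Mdga1 held 1 GC box each. The full cAMP response element TGACGTCA, searched on both strands, was in 0 of the 9 windows of these genes and in 1.55% of all windows, and these letters say nothing of which factors act there.

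The genes differ greatly in size. In GENCODE M21 on GRCm38, Nlgn2 lies at chr11:69823122-69837784 on the minus strand, spans 14663 bases with 5785 exonic bases, and shares exons with no other gene. Nlgn1 (chr3:25426215-26332460, minus strand) spans 906246 bases and Nrxn3 (chr12:88722876-90334935, plus strand) 1612060. Nlgn3 is X-linked (chrX:101299168-101325963, plus strand), and 3823 of its exonic bases are shared with the transcript Gm21986 on the same strand, which had 0 to 9 counts. Gphn (chr12:78226379-78684772, plus strand) shares 147 exonic bases with the antisense Gm48226, which had 131 to 409 counts. The strand setting of the counting is not given in the sources used here, so reads in these shared stretches cannot be assigned to a strand. Nrxn2 (chr19:6418731-6544169, plus strand), Mdga1 (chr17:29827949-29970087, minus strand) and Mdga2 (chr12:66466060-67222549, minus strand) complete the set. Nrxn2 shares 682 exonic bases with Slc22a12 (0 to 17 counts) and 207 with the antisense Gm14964 (10 to 65 counts). Nrxn3 shares 439 with Gm37980 (0 to 15 counts), and Mdga2 shares 1651 with the pseudogene Gm19001. Nlgn1 shares 1229 with the antisense A830092H15Rik (9 to 33 counts), and Mdga1 shares none.

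Per kilobase of exon, neurexin 3 and gephyrin transcripts were the most abundant and those of the MDGA proteins the least. The length joins the exons of all annotated transcripts, 13812 bases for Nrxn2 and 12605 for Nrxn3. Their longest coding transcripts hold only 6667 and 7922 bases. For Nlgn2 and Gphn the lengths are closer, 5785 and 3749 against 5568 and 3570. The order given here rests on the joined length and was not computed by transcript length. Mean levels were 15.9 ± 4.43 CPM per kb (SD, n = 22) for Nrxn3 and 15.7 ± 2.47 for Gphn. These neighbours were not separated, Nrxn3 being above Gphn in 13 of 22 mice. The neuroligins formed a middle group, with 5.43 ± 0.610 CPM per kb for Nlgn3, 5.14 ± 0.991 for Nlgn1 and 4.61 ± 0.875 for Nlgn2. Within it Nlgn3 was above Nlgn1 in 14 of 22 mice and Nlgn1 above Nlgn2 in 15. Nrxn2 followed with 4.02 ± 0.798 CPM per kb and was below Nlgn2 in 14 mice. Mdga2 (1.90 ± 0.418) and Mdga1 (1.13 ± 0.485) came last, and Gphn over Nlgn3, Nrxn2 over Mdga2 and Mdga2 over Mdga1 held in 22 of 22 mice each. The order turned with the run. In the low run Gphn (13.9 CPM per kb) had the higher mean and Nrxn3 the lower (11.9), and in the high run Nrxn3 was at 19.2 and Gphn at 17.1. Nrxn2 was below Nlgn2 in the low run (3.29 against 5.03 CPM per kb) and above it in the high run (4.63 against 4.25). Nlgn1 had the lowest mean of the neuroligins in the low run (4.46 CPM per kb) and the highest in the high run (5.71).

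**Figure D1:**
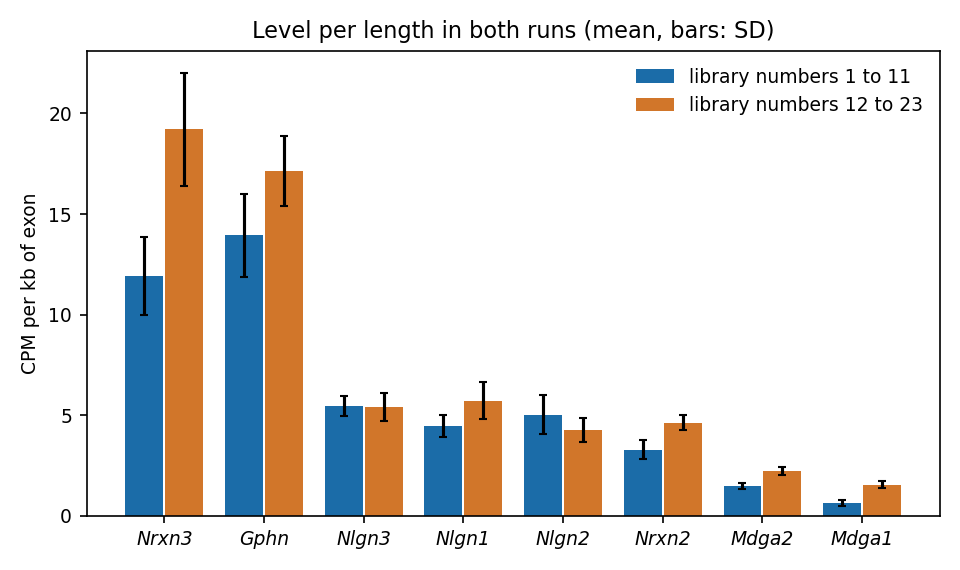
Mean level per length (CPM per kb of exon, vertical axis) of the 8 genes, ordered by their mean over 22 mice, with blue bars for library numbers 1 to 11 (n = 10) and orange bars for 12 to 23 (n = 12), and SD as error bars. Nrxn3 and Gphn stand highest, Mdga1 lowest, and Nlgn3 has bars of nearly the same height, 5.45 and 5.42 CPM per kb.

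Nlgn2 was higher in stimulated mice in both runs, with much overlap. In the 4 stimulated mice of the low run it was at 25.3, 30.7, 36.5 and 40.5 CPM, against 22.2 to 29.8 (median 27.3) in the 6 controls. In the 6 stimulated mice of the high run it ranged from 20.5 to 30.3 CPM with a median of 27.3, against 20.2 to 25.0 (median 22.6) in the 6 controls. Within the low run 3 of 4 stimulated mice were above every control, and within the high run 4 of 6. With both runs joined, the mean was 29.3 ± 5.86 CPM (SD, n = 10) in stimulated mice and 24.4 ± 3.05 (SD, n = 12) in controls, 9 of 10 stimulated mice were above the control median and 5 above every control. The log2 fold change was 0.26 (SE 0.10), or 1.20-fold, with group as the only term, and 0.28 (SE 0.08) with the run as a covariate. It was 0.35 (SE 0.13) in the low run alone and 0.21 (SE 0.10) in the high run. Leaving out each mouse in turn moved it between 0.20, without stimulated mouse 4, which had the 40.5 CPM, and 0.31, without stimulated mouse 7.

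**Figure D2:**
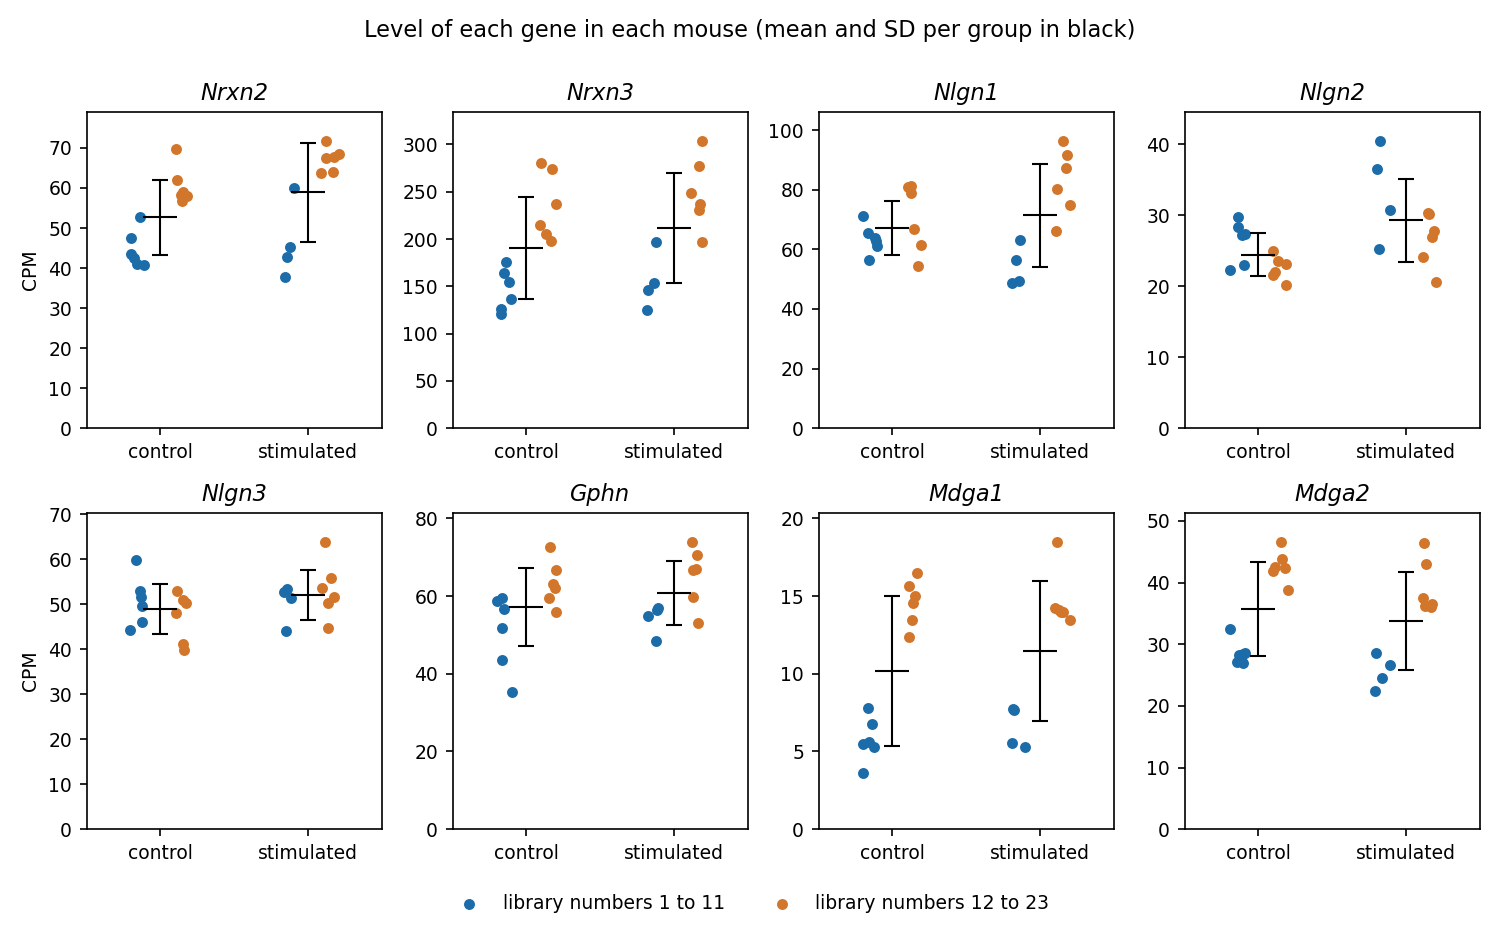
Level of each gene (CPM, vertical axes from 0) in each of 12 control and 10 stimulated mice, blue for library numbers 1 to 11 and orange for 12 to 23, with the mean and SD of each group in black. The colours separate without overlap for Mdga1 and Mdga2 (the share of all genes that do so was not counted), while for Nlgn2 5 stimulated mice lie above the highest control at 29.8 CPM.

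For the other neuroligins the values by run were as follows, without a test of their difference from Nlgn2. Nlgn1 was lower in stimulated mice of the low run, at 48.7, 49.3, 56.5 and 63.2 CPM against 56.4 to 71.3 (median 63.3) in controls. It was higher in those of the high run, with a range of 66.1 to 96.4 CPM (median 83.7) against 54.3 to 81.1 (median 72.9). The groups overlapped in both runs, with 2 of 4 stimulated mice below every control in the low run and 3 of 6 above every control in the high run. The log2 fold change was -0.21 (SE 0.10) in the low run and 0.20 (SE 0.11) in the high run. This difference of the stimulation effect between runs, 0.45 (SE 0.16), did not pass the test, with an adjusted p of 0.558 in edgeR's quasi-likelihood interaction test. Of all genes, 8.01% had an unadjusted p under 0.05 in that test (1403 genes) and 0 an adjusted p under 0.05, against 2 with the DESeq2 Wald test. For the other 7 genes the adjusted p of the same test ranged from 0.786 to 0.998. Nlgn3 was nearly level in the low run (log2 fold change 0.00, SE 0.10) and at 0.14 (SE 0.10) in the high run, and overall stood at 52.1 ± 5.58 CPM (SD, n = 10) in stimulated and 49.0 ± 5.55 (SD, n = 12) in control mice.

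As a measure of balance between the neuroligins, log2 CPM of Nlgn1 was subtracted from that of Nlgn2 within each mouse, again without a test. Controls had a mean of -1.45 ± 0.27 (SD, n = 12), and stimulated mice -1.27 ± 0.57 (SD, n = 10). In the low run controls ranged from -1.52 to -1.05 and stimulated mice from -0.96 to -0.27, with no overlap. In the high run the means were -1.63 in both groups. The measure holds Nlgn2, by which the genes were chosen, and its difference between runs was not tested.

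The postsynaptic scaffold and the presynaptic partners showed group differences of about the size of their standard errors. Gphn was at 60.8 ± 8.33 CPM (SD, n = 10) in stimulated and 57.1 ± 9.99 (SD, n = 12) in control mice, a log2 fold change of 0.09 (SE 0.11), and its lowest mouse was control 1, of the low run, at 35.3 CPM, without which the value was 0.04 (0.03 with the run in the fit). Nrxn3 was at 212 ± 58.5 CPM against 191 ± 54.1, a log2 fold change of 0.15 (SE 0.17) that was 0.09 (SE 0.09) with the run in the fit. Nrxn2 was at 58.9 ± 12.3 CPM against 52.7 ± 9.43, a log2 fold change of 0.16 (SE 0.12). In the high run 6 of 6 stimulated mice had more Nrxn2 (63.7 to 71.8 CPM) than the control median, and 5 of 6 controls were below every stimulated mouse, while the low run showed no such separation.

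The difference between the MDGA genes was not tested. Mdga2 was the only gene of the 8 with a lower mean in stimulated mice over both runs, at 33.8 ± 7.97 CPM (SD, n = 10) against 35.6 ± 7.63 (SD, n = 12). In the low run the stimulated mice were at 22.4, 24.6, 26.6 and 28.6 CPM, 3 of 4 below every control (27.0 to 32.5), and in the high run 4 of 6 were below every control. The log2 fold change of Mdga2 was -0.08 (SE 0.14) with group alone, -0.14 (SE 0.06) with the run in the fit, and -0.15 in either run alone. Mdga1 was at 11.4 ± 4.51 CPM against 10.2 ± 4.82, a log2 fold change of 0.17 (SE 0.27), and within the high run the means were 14.7 and 14.6.

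Over the 8 genes, 7 had a positive log2 fold change and the median was 0.12, against 0.01 over all genes tested. With group alone 1 of 8, Nlgn2, had an unadjusted p under 0.05, as did 3.61% of all genes. With the run in the fit 2 of 8 did, Nlgn2 higher and Mdga2 lower, beside 11.5% of all genes. Nothing is read from these counts, since Nlgn2 was chosen by this contrast. At an adjusted p under 0.05 edgeR called 0 of all 17524 genes in both fits (632 and 2015 at an unadjusted p under 0.05), and the DESeq2 Wald test with group alone 3, none of them among the 8.

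**Figure D3:**
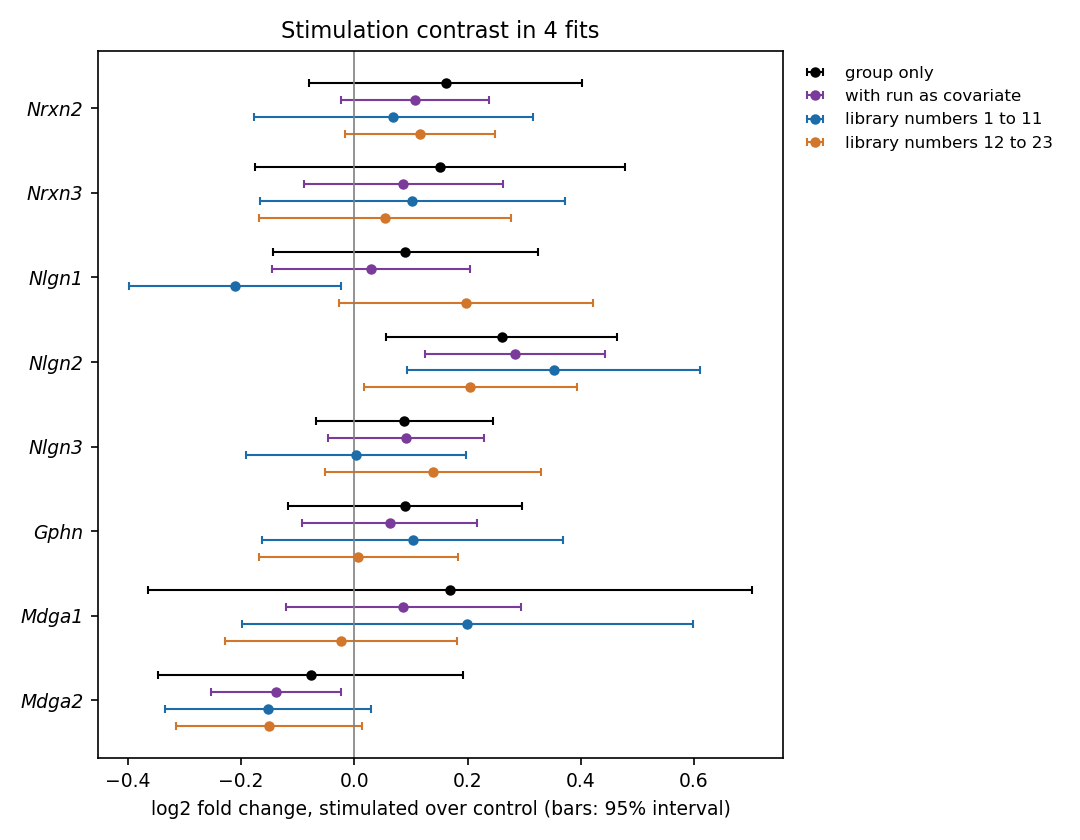
Log2 fold change of stimulated over control mice (horizontal axis) for the 8 genes in 4 edgeR fits, group only (black), with the run as a further term (purple), and within library numbers 1 to 11 (blue) and 12 to 23 (orange), with bars for the 95% interval. The 4 points of Nlgn2 lie between 0.21 and 0.35, and those of Nlgn1 lie on both sides of 0.

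Base composition moved with the same contrast. Transcripts of Nlgn2 hold 60.7% G and C in their longest coding form, more than 96.6% of genes tested, and those of Nlgn1 38.9%, more than 3.86%. Nrxn2 (62.4%) and Mdga1 (58.7%) are, with Nlgn2, in decile 10 of all genes by this share, and Mdga2 (42.2%) is in decile 2. Over all genes with a transcript, 17516 of 17524, the median log2 fold change with the run in the fit was -0.10 in decile 1, the poorest in G and C, and 0.05 in decile 10, the richest. The contrast of a mouse, the median centred log2 CPM of decile 10 minus that of decile 1, was between 0.11 and 0.28 in the 4 stimulated mice of the low run and between -0.26 and 0.07 in its 6 controls, with no overlap. In the high run it ranged from -0.31 to 0.17 in stimulated and from -0.26 to 0.10 in control mice. With this contrast and the run as covariates, fits added after seeing the data, the log2 fold change was 0.22 (SE 0.09) for Nlgn2, 0.17 (SE 0.09) for Nlgn1, 0.18 (SE 0.07) for Nlgn3 and -0.06 (SE 0.06) for Mdga2. With the contrast and no run it was 0.16 (SE 0.12) for Nlgn2, 0.25 (SE 0.12) for Nlgn1 and 0.05 (SE 0.14) for Mdga2. In that last fit Mdga2 was above 0 and 5 of the other genes, Nrxn2, Nrxn3, Nlgn1, Nlgn3 and Mdga1, had larger values than Nlgn2. Nlgn2 was also behind Mdga1 (0.44), Nrxn2 (0.23) and Nrxn3 (0.22) with limma voom and sample quality weights, at 0.22, and behind Mdga1 (0.30 against 0.24) with the replicate block.

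**Figure D4:**
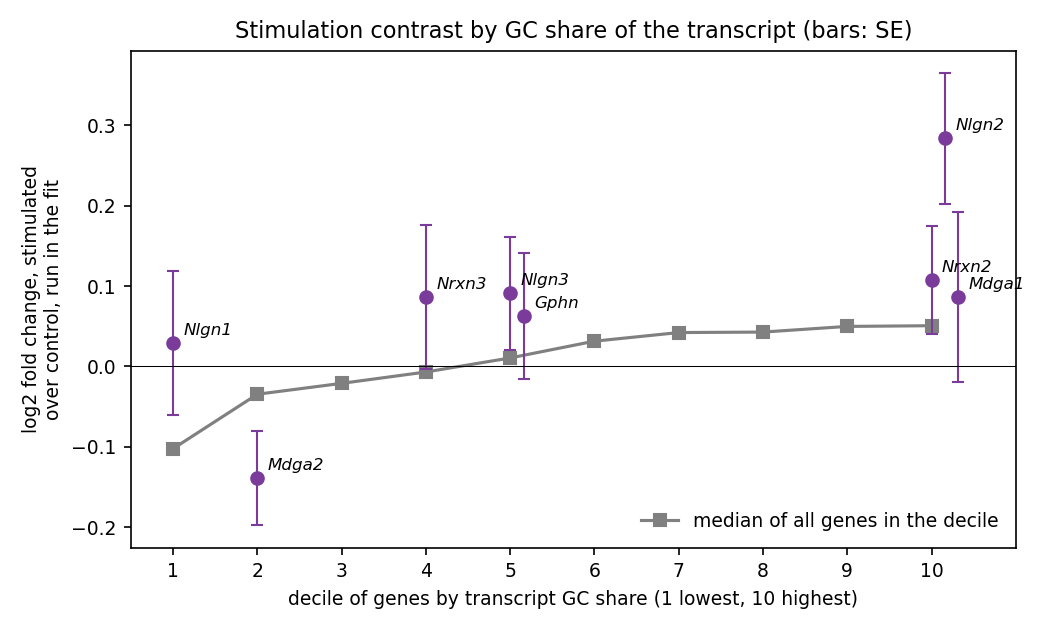
Log2 fold change of stimulated over control mice with the run in the fit (vertical axis) against the decile of genes by G and C share of the transcript (horizontal axis), as the median of all genes in each decile (grey squares) and as each of the 8 genes with its SE (purple). Medians run from -0.10 in decile 1 to 0.05 in decile 10, and Nlgn2, chosen by this contrast, is at 0.28.

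Of the lists of markers for other cells, oligodendrocyte markers had genes at an unadjusted p under 0.05 with group alone, and astrocyte (6 genes), oligodendrocyte progenitor (4), microglia (5) and vascular (5) markers had 0 (edgeR). All 7 oligodendrocyte markers were lower in stimulated mice at an unadjusted p under 0.05 and 0 at an adjusted p under 0.05 (edgeR), with a median log2 fold change of -0.73, beside 3.61% of all genes at the unadjusted threshold. With the DESeq2 Wald test these were 5 of 7 (median -0.53), beside 733 of all genes, and with the replicate block 2 of 7 (median -0.36), beside 1291. In the low run alone 5 of 7 had a positive value and 0 an unadjusted p under 0.05 (median 0.09), while in the high run alone 7 of 7 had a negative value with an unadjusted p under 0.05 (median -1.35), beside 2165 of all genes. Of the progenitor markers 3 of 4 were lower there at that threshold (median -0.26). The difference of the effect between runs had an unadjusted p under 0.05 for 7 of 7 and an adjusted p under 0.05 for 0 (edgeR interaction test), beside 8.01% of all genes before adjustment. Their summed level was 3186 to 19590 CPM in controls and 2331 to 5788 CPM in stimulated mice, none of them at 0. Of GABA neuron markers 0 of 8, and of glutamate neuron markers 0 of 6, had an unadjusted p under 0.05, and the median log2 fold changes were 0.12 in both lists. With the run in the fit 2 of 8 GABA neuron markers had an unadjusted p under 0.05, Slc32a1, the vesicular GABA transporter (0.31, SE 0.10), and Sst, somatostatin (0.24, SE 0.11), and 1 of 6 glutamate neuron markers, Slc17a7, the vesicular glutamate transporter (0.16, SE 0.06). These 3 were higher in stimulated mice, are named after their values were seen, and had adjusted p of 0.329, 0.416 and 0.363 (edgeR), beside 11.5% of all genes called before adjustment. Pvalb, parvalbumin, of the same GABA list was at -0.26 (SE 0.21). With run and G and C contrast 0 GABA neuron markers were called higher and 1 lower, and 0 glutamate neuron markers were called, beside 849 of all genes higher and 954 lower (edgeR, unadjusted p under 0.05). The part of these shifts in the values of the 8 genes was not tested.

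Between the runs of library numbers, a comparison that the choice of genes did not use, most of the 8 genes differed. With group in the fit, 7 of 8 were called by edgeR (adjusted p under 0.05), 6 higher and 1 lower in the high run, beside 68.1% of all genes. Mdga1 had the largest difference of the 8. It was at 3.60 to 7.82 CPM (median 5.57) in the low run and at 12.4 to 18.5 (median 14.2) in the high run, with no overlap, a log2 difference of 1.26 (SE 0.11, edgeR adjusted p = 1.4e-10). Mdga2 also did not overlap, at 22.4 to 32.5 CPM (median 27.7) against 36.1 to 46.6 (median 42.1), a log2 difference of 0.60 (SE 0.06, edgeR adjusted p = 1.8e-09). The share of all genes without overlap between the runs was not counted, so nothing particular to these genes is read from it. Nrxn3 was higher in the high run by 0.68 on the log2 scale (SE 0.09), Nrxn2 by 0.48 (SE 0.07), Nlgn1 by 0.35 (SE 0.09) and Gphn by 0.29 (SE 0.08). Nlgn2 was the gene that was lower there, at 24.6 ± 3.49 CPM (SD, n = 12) against 29.1 ± 5.72 (SD, n = 10), a log2 difference of -0.27 (SE 0.08, edgeR adjusted p = 0.0054). Nlgn3 did not pass, with -0.02 (SE 0.07, edgeR adjusted p = 0.793) and a 95% interval of -0.16 to 0.12. What distinguishes the runs was not given in the labels, so preparation, animals and other sources cannot be told apart.

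**Figure D5:**
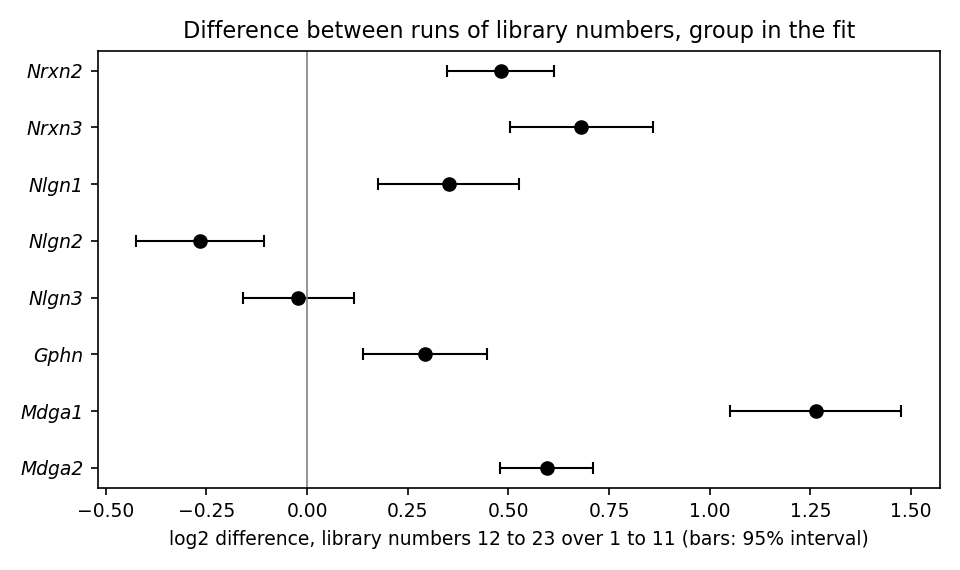
Log2 difference of library numbers 12 to 23 over 1 to 11 (horizontal axis) for the 8 genes, from the edgeR fit with group as a term, with bars for the 95% interval. Mdga1 lies farthest to the right at 1.26, Nlgn2 is below 0 at -0.27, and the bar of Nlgn3 spans 0.

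Correlations between the levels of the 8 genes across mice are given as a description, with tests within the runs. Over their 28 pairs the median Pearson correlation of log2 CPM across 22 mice was 0.56, and 0.27 after each gene had been centred within the runs. The sign was positive in both runs for 19 pairs. Nrxn3 and Nlgn3 had the highest centred correlation. Their Pearson r was 0.84 in the low run (n = 10, permutation p = 0.0025) with a Spearman rho of 0.87 (permutation p = 0.0023), and r was 0.74 in the high run (n = 12, permutation p = 0.0058) with a rho of 0.78 (permutation p = 0.0038). Without the 2 mice farthest from the median of Nrxn3, r was 0.95 and 0.74. Adjusted over the 56 correlations of the 28 pairs in 2 runs, the permutation p for r was 0.0703 and 0.0762, and 0 of the 56 passed an adjusted p under 0.05. For Nlgn2 and Nrxn2 the correlation was positive in both runs and did not pass the adjustment (r 0.72, permutation p = 0.019, rho 0.75, permutation p = 0.018 in the low run, and r 0.60, permutation p = 0.041, rho 0.61, permutation p = 0.040 in the high run), with adjusted permutation p of 0.123 and 0.193 for r. Without the 2 farthest mice these r fell to 0.49 and 0.36. Levels were not centred within groups, so the group difference of Nlgn2 by which it was chosen is part of these values.

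The genes of the whole table whose levels followed Nlgn2 most closely over the 22 mice, by Pearson correlation of log2 CPM centred within runs, were Lrrc4b (0.90), Thy1 (0.87), Pigt (0.85), Rpp25l (0.84) and Ptms (0.83). Lrrc4b encodes a postsynaptic adhesion protein, NGL-3, and Thy1 a surface glycoprotein of neurons. For Gphn they were Stambp (0.93), Sv2a (0.91), Zfyve1 (0.91), Tspyl5 (0.90) and Eno2 (0.90), of which Sv2a encodes a synaptic vesicle protein and Eno2 the neuronal enolase. These are the highest of all genes tested and are given as a description, and group differences are part of these correlations too.

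Other genes of the pathway were taken as lists by role. Among 24 other partners of neurexins, on both sides of the synapse, 17 had a positive log2 fold change with group alone, 13 with the run in the fit, 11 in the low run and 12 in the high run alone. With group alone the median was 0.03, 1 had an unadjusted p under 0.05, beside 3.61% of all genes, and 0 an adjusted p under 0.05 (edgeR's quasi-likelihood test). That gene was C1ql2, a secreted complement-like ligand, at 1.92 ± 1.12 CPM (SD, n = 10) in stimulated and 3.71 ± 3.31 (SD, n = 12) in control mice, a log2 fold change of -0.93 (SE 0.38). Next by p were Lrrtm1 (log2 fold change 0.18, SE 0.09), a postsynaptic leucine-rich repeat protein, and Adgrl1 (0.16, SE 0.11), a latrophilin. With the run in the fit 3 of 24 had an unadjusted p under 0.05, near the 11.5% of all genes in that fit. They were C1ql2 (-0.88, SE 0.37), Cbln4 (-0.37, SE 0.16), a cerebellin that links neurexins to receptors across the cleft, and Lrrtm2 (-0.21, SE 0.10). The 3 were lower in stimulated mice, and 0 passed after adjustment, the smallest adjusted p of the list being 0.383.

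Among 14 partners of the inhibitory postsynapse, the list nearest to gephyrin, 10 had a positive log2 fold change with group alone, with a median of 0.08, and 7 in the low run alone, with a median of 0.01. With group alone 0 had an unadjusted or adjusted p under 0.05 (edgeR, beside 3.61% of all genes at the unadjusted threshold; also 0 with the DESeq2 Wald test). The smallest p were those of Clptm1 (0.10, SE 0.07), which holds GABA-A receptors back from the surface, Shisa7 (0.25, SE 0.17), a GABA-A receptor auxiliary protein, and Insyn1 (0.16, SE 0.11), a gephyrin-associated protein. With the run in the fit 1 of 14, Gabarap, which binds GABA-A receptors, had an unadjusted p under 0.05 (0.15, SE 0.06, edgeR adjusted p = 0.359), beside 11.5% of all genes, followed by Shisa7 (0.15, SE 0.08) and Magi2 (-0.10, SE 0.05), a scaffold protein.

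Among 20 other synaptic adhesion genes, 17 had a positive log2 fold change with group alone, with a median of 0.15 (0.08 with the run in the fit), and 9 in the low run alone, with a median of -0.01. With group alone 2 had an unadjusted p under 0.05, beside 3.61% of all genes, and 0 an adjusted p under 0.05 (edgeR). These were Lrrc4b, at 33.8 ± 3.36 CPM (SD, n = 10) against 30.1 ± 2.74 (SD, n = 12), and Lrrc4, both with a log2 fold change of 0.17 (SE 0.07 and 0.08). Slitrk2, of the SLITRK family of adhesion proteins, was next at -0.25 (SE 0.13). With the run in the fit 5 of 20 had an unadjusted p under 0.05, 4 higher and 1 lower, beside 11.5% of all genes, and 0 an adjusted p under 0.05, the smallest being 0.353 for Lrrc4b (0.16, SE 0.06). Of the receptor phosphatases in this list, Ptprd was at -0.19 (SE 0.07), Ptprf at 0.19 (SE 0.08) and Ptprs at 0.08 (SE 0.06), with edgeR adjusted p of 0.357, 0.375 and 0.654 and no test of the difference between them. Between the runs 16 of 24, 11 of 14 and 15 of 20 genes of the 3 lists had an edgeR adjusted p under 0.05. These counts are near the 68.1% of all genes, and nothing about the lists is read from them.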

How the data were processed

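The authors used cutadapt 1.10 for trimming, STAR 2.5.3a for alignment to mm10 and, per gene, HTSeq 0.6.1p1 for counting, and they deposited whole-number counts for 22 mice, made from 5 ng of RNA with 10 cycles of cDNA amplification. The table also holds normalized counts and the authors' own comparison (log2 fold changes and p-values), which were not used. Integrity of the RNA and batch, covariates of the authors, were not used here because the labels do not give them per mouse. The paper places both in its supplementary material, which was not used for this. Groups, replicate and library numbers came from the labels.

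Counts were fitted with edgeR 4.0.16 in R 4.3.3 (TMM, glmQLFit, glmQLFTest, group as the only term) on 17524 genes (a minimum of 10 counts in 10 or more mice), and p-values were adjusted over all of them by the Benjamini-Hochberg method. Standard errors are the log2 fold change over the square root of F. Log2 CPM used a prior count of 2. Correlations were tested within runs by permutation with 100000 resamples, a test added after seeing the data. Alternatives were DESeq2 1.42.0, limma 3.58.1 voom with sample quality weights, other count minimums, the run, a replicate block, each run alone, each mouse left out and, added after seeing the data, the contrast in G and C share. The fits were tested on simulated counts, with calls at an edgeR adjusted p under 0.05. With group alone 32.3% of genes changed by 0.5 on the log2 scale were called, and with the run 61.6%. For changes of 1 these were 69.1% and 83.5%. The interaction test called 8% of changes of 0.5 and 56% of changes of 1. Differences under 0.5 may therefore go uncalled. Coordinates and exon lengths are from GENCODE M21.

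The members, gene lists and tests were chosen with earlier results of these data known. Genes named outside the 8 are, in each list of partners or adhesion genes, the 3 with the smallest p with group alone and with the run, and the 5 most correlated with Nlgn2 and with Gphn. This rule was not applied to the marker lists. Ptprs and the markers Slc32a1, Sst, Slc17a7 and Pvalb fall outside this rule and were named after their values were seen, as were transcripts that overlap the 8. P-values measure the spread between mice, and counts carry no molecular identifiers.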

Additional observations from a re-analysis of the deposited data

How the results depend on the processing

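Nlgn2 had a positive log2 fold change in every alternative run, which is no sign of stability since it was chosen by this contrast, and Mdga2 a negative one in all but the fit with the G and C contrast and no run. Nlgn1 turned to -0.21 in library numbers 1 to 11 alone and Mdga1 to -0.02 in 12 to 23 alone. Between the runs of library numbers each of the 8 genes kept its direction and its side of an adjusted p of 0.05 in the 5 alternatives tried, Mdga1 at 1.20 to 1.28 on the log2 scale. The counts that follow include Nlgn2 and are given as values only. Of the 8 genes, 2 had an unadjusted p under 0.05 with limma voom and sample quality weights, with the run, in library numbers 1 to 11 alone and with run and G and C contrast, against 1 with group alone. Beside them stood 1857, 2015, 974 and 1803 of all genes, against 632. The second gene beside Nlgn2 differed each time, being in that order Nrxn2 (higher), Mdga2 (lower), Nlgn1 (lower) and Nlgn3 (higher). With the G and C contrast and no run the count was 1, as with group alone, beside 793 of all genes. There the gene was Nlgn1 in place of Nlgn2. Leaving out each mouse in turn with group alone gave 0 to 1, the 0 being without stimulated mouse 4, where Nlgn2 was at 0.20. With group alone Gphn fell to 0.04 without control mouse 1, Mdga1 to 0.07 without stimulated mouse 6, Nrxn3 to 0.08 without stimulated mouse 7 and Nlgn1 to 0.03 without stimulated mouse 8, and Mdga2 ran from -0.14 (without stimulated mouse 8) to -0.02 (without stimulated mouse 1). With the run in these fits, Nlgn1 was negative in 3 of 22 (lowest -0.02, without control mouse 9), and Nrxn2 fell to 0.05 and Nrxn3 to 0.03 without stimulated mouse 4. Nlgn2, Mdga2 and Nrxn2 had an unadjusted p under 0.05 in 22, 21 and 1 of 22 (edgeR). Beside them stood 11.5% of all genes in that fit with every mouse. The fits share nearly all mice, so these counts are no sign of stability either.

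With group alone the lists of neurexin partners, inhibitory postsynapse partners and other adhesion genes had 1, 0 and 2 genes at an unadjusted p under 0.05, and all genes 632. With limma voom and sample quality weights these were 4, 2, 8 and 1857. With the run they were 3, 1, 5 and 2015, and in library numbers 12 to 23 alone 4, 3, 4 and 2165. In library numbers 1 to 11 alone they were 4, 0, 3 and 974. With no count minimum they were 1, 0, 0 and 2371, and with DESeq2 size factors 1, 0, 1 and 620. With run and G and C contrast they were 2, 2, 4 and 1803, and with the contrast alone 2, 1, 3 and 793. The replicate block gave 4, 1, 7 and 1291, with Nlgn2 at 0.24 and 1 of the 8 genes at an unadjusted p under 0.05. Same-numbered mice are different animals, and their deviations correlated at 0.28 to 0.63 in the 8 pairs within a run and at -0.30 and -0.37 in pairs 5 and 6, which join a control of the low run with a stimulated mouse of the high run, so the block carries a part of the run. The median correlation between the 8 genes was 0.27 centred within runs and 0.56 without centring. The cause of these changes was not tested. Depth limits Mdga1 most, at 126 counts in its lowest mouse.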
